A study of Mus musculus with 8 samples.

Results

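Genes induced by interferon and genes that present antigen on major histocompatibility complex (MHC) class I and class II molecules were compared between skin with and without the glucocorticoid receptor. The list held 42 genes chosen by function, 28 induced by interferon and 14 of antigen presentation, and the rule for membership used no measured value, although the list was drawn up with earlier results of these data known. A gene was read at a probe set annotated to it alone, taking the one with the highest mean over the 8 arrays. By that rule 40 of the 42 genes were measured, among 18194 genes on the array: 26 interferon-induced genes and all 14 antigen presentation genes. Isg15 and Ifi44 were not analysed here, since no probe set was annotated to either of them alone.

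Total RNA had been taken from the back skin of B6D2/F1 mouse embryos at day 18.5 of gestation. A group of 4 arrays came from embryos lacking the glucocorticoid receptor (genotype GR-/-, called GR-null) and a group of 4 from embryos with intact receptor alleles (GR+/+, called wild-type). The labels describe the embryos as littermates delivered by caesarean section, and name no drug and no inducible or tissue-restricted allele. How the null allele was built is not given here. Arrays carry the numbers of their labels: wild-type 4, 6, 28 and 29, and GR-null 5, 17, 25 and 26. These numbers do not pair arrays across genotypes. Whether every array holds a different embryo is not stated, so p-values measure only the spread between these samples, which may be technical. All values are log2 levels of a probe set, a group of short probes read together, so a difference of 1 is a doubling. Levels of different probe sets cannot be compared with each other, and none are ranked here as amounts of RNA.

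Interferons are secreted proteins that warn cells of viral infection. Type I interferon signals through Janus kinases to a complex that holds Stat2 and Irf9 and binds the interferon-stimulated response element in the promoters of antiviral genes. Type II interferon acts at the gamma-activated site and raises Irf1, the immunoproteasome, peptide transporters and, through Ciita, the MHC class II genes. Glucocorticoids are known as inhibitors of interferon and inflammatory signalling. Adult skin holds resident macrophages and Langerhans cells that carry MHC class II, whereas the skin read here is embryonic.

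The sequences around the starts of the genes held different motifs in the 2 classes. RefSeq windows of 300 bases, 250 before and 50 after a transcription start (assembly GRCm38.p6), were at hand for 31 of the 40 measured members and for 27025 genes in all. The letters GAAA, any 2 bases and GAAA again, a form of the interferon-stimulated response element, were found on either strand in 12 of 22 interferon-induced genes (54.5%), in 1 of 9 antigen presentation genes (11.1%) and in 3.99% of all genes with a window. The letters TTCNNNGAA, a form of the gamma-activated site that reads the same on both strands, were found in 8 of 22 (36.4%), in 1 of 9 (11.1%) and in 9.55% of all genes. The letters CTGATTGG, a form of the Y box of MHC promoters, were found on either strand in 1 of 22 interferon-induced genes (4.55%), in 6 of 9 antigen presentation genes (66.7%) and in 4.7% of all genes. Tap1 and Psmb9, which lie head to head, shared a single Y box match at chr17:34187334-34187341, which counts for both genes. Some matches did not lie before the start. The response element matches of Ddx58, Eif2ak2, Ifih1 and Ifitm3 lay after it, as did the gamma-activated site matches of Ifi35 and Ifitm3. The Y box match of H2-K1 overlapped or followed the start, depending on the window. A match is a description of these windows and does not show that a factor binds there.

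Sequences are shown for 3 antiviral genes and for B2m, which hold the response element, with the 160 bases before the start written 5′ to 3′ on the gene's strand and matches to that element on either strand in capitals.
Rsad2, chr12:26456453-26456612, minus strand: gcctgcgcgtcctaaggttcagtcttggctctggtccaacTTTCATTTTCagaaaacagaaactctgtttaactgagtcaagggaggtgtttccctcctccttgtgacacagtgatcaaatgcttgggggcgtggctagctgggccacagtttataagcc
Ifit1, chr19:34640729-34640888, plus strand: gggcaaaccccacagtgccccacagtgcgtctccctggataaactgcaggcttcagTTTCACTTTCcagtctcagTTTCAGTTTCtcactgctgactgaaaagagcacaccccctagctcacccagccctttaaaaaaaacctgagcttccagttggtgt
Ifit3, chr19:34583369-34583528, plus strand: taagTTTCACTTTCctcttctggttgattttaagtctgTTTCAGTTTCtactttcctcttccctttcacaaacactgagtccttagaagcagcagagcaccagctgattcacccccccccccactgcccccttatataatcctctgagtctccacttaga
B2m, chr2:122147527-122147686, plus strand: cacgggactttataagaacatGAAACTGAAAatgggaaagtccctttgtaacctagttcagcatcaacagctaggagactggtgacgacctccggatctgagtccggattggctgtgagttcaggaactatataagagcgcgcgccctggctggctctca
Ifit1 and Ifit3 each held 2 copies within this stretch, and Rsad2 and B2m held 1. All 4 copies in the Ifit genes and the copy in Rsad2 lay on the strand opposite to the gene, whereas that in B2m lay on the gene's own strand.

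The next 3 stretches belong to a class I gene and to both class II genes with a window, drawn the same way with matches to CTGATTGG or its complement in capitals.
H2-D1, chr17:35262934-35263093, plus strand: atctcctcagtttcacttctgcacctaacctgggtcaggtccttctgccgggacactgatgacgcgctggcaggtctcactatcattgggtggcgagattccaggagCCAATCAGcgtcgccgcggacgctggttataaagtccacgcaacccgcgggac
H2-Aa, chr17:34287824-34287983, minus strand: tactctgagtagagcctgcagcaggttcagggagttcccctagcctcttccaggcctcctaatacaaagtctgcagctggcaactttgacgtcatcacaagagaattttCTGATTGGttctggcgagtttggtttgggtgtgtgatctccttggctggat
H2-Eb1, chr17:34305707-34305866, plus strand: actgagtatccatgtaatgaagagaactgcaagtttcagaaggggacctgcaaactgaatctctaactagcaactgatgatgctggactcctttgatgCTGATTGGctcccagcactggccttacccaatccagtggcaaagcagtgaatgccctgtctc
Counted from the start as base 0, the match lay at bases -53 to -46 in H2-D1, -51 to -44 in H2-Aa and -62 to -55 in H2-Eb1, on the opposite strand in H2-D1 and on the gene's strand in the other two.

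The labels were checked against the gene for the glucocorticoid receptor itself. Nr3c1 measured 10.24, 10.32, 10.24 and 10.24 on the wild-type arrays and 9.21, 9.24, 9.62 and 9.61 on the GR-null arrays. It fell by 0.84 (SE 0.11), with an adjusted p of 0.0108 in limma, and no GR-null array reached a wild-type value. The medians of the 8 arrays over all probe sets lay between 6.46 and 6.52. Among marker genes of other cell types, skeletal muscle genes were the ones that set the arrays apart most. The mean of 28 of them was 11.35 to 11.48 on the wild-type arrays, and 10.53, 11.34, 10.84 and 10.75 on GR-null 5, 17, 25 and 26, so that GR-null 17 lay close to the wild-type arrays.

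None of the 40 members passed the test between genotypes. In limma, with p-values adjusted over 18194 genes and a threshold of 0.05, 0 of 26 interferon-induced genes and 0 of 14 antigen presentation genes were called, where 2.96% of all genes were (1.4% higher and 1.56% lower in GR-null skin). The smallest adjusted p was 0.0628 for Ifitm1, and the smallest among the antigen presentation genes was 0.132 for Cd74. At an unadjusted p below 0.05 there were 5 interferon-induced genes (3 higher, 2 lower), which is 19.2% of them, and 6 antigen presentation genes, all higher, which is 42.9%, where 21.6% of all genes lay below it. The 6 include H2-K1 and H2-D1, whose probe sets did not give a single answer, as described below. The groups did not overlap for 2 members, Cd74 (GR-null above) and Ifitm1 (GR-null below), where 13% of all genes had that property (6.69% with GR-null above and 6.3% below). With array quality weights, the other weighting tried in limma, 3 interferon-induced genes were called, where the share of all genes called was 10.7%. With the mean over all probe sets of each gene, Ifitm1 was called, where the share of all genes was 4.86%.

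The median difference, GR-null minus wild-type, was 0.12 over the interferon-induced genes and 0.33 over the antigen presentation genes, beside -0.0045 over all genes. Single arrays moved both medians: that of the interferon-induced genes was 0.06 without wild-type 6 or GR-null 17 and 0.23 without wild-type 29, and that of the antigen presentation genes was 0.22 without GR-null 17. Without probe sets prone to cross-hybridisation the median of the antigen presentation genes was 0.19 over 12 genes. H2-Aa and H2-K1 had no other probe set and dropped out. With the mean over all probe sets of each gene the median of all 14 antigen presentation genes was 0.21. By role the medians were 0.14 for the 5 transcription factors, 0.42 for the 3 RNA sensors and kinase, 0.05 for the 18 antiviral effectors, 0.20 for the 9 class I genes and 0.63 for the 5 class II genes. A difference above 0 was seen in 20 of 26 interferon-induced genes and 12 of 14 antigen presentation genes, against 48.7% of all genes. These counts describe the lists and carry no test, since members of one pathway vary together on an array. In whole skin, fewer cells of a type and less RNA per cell cannot be told apart, for these or any of the values that follow.

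**Figure D1:**
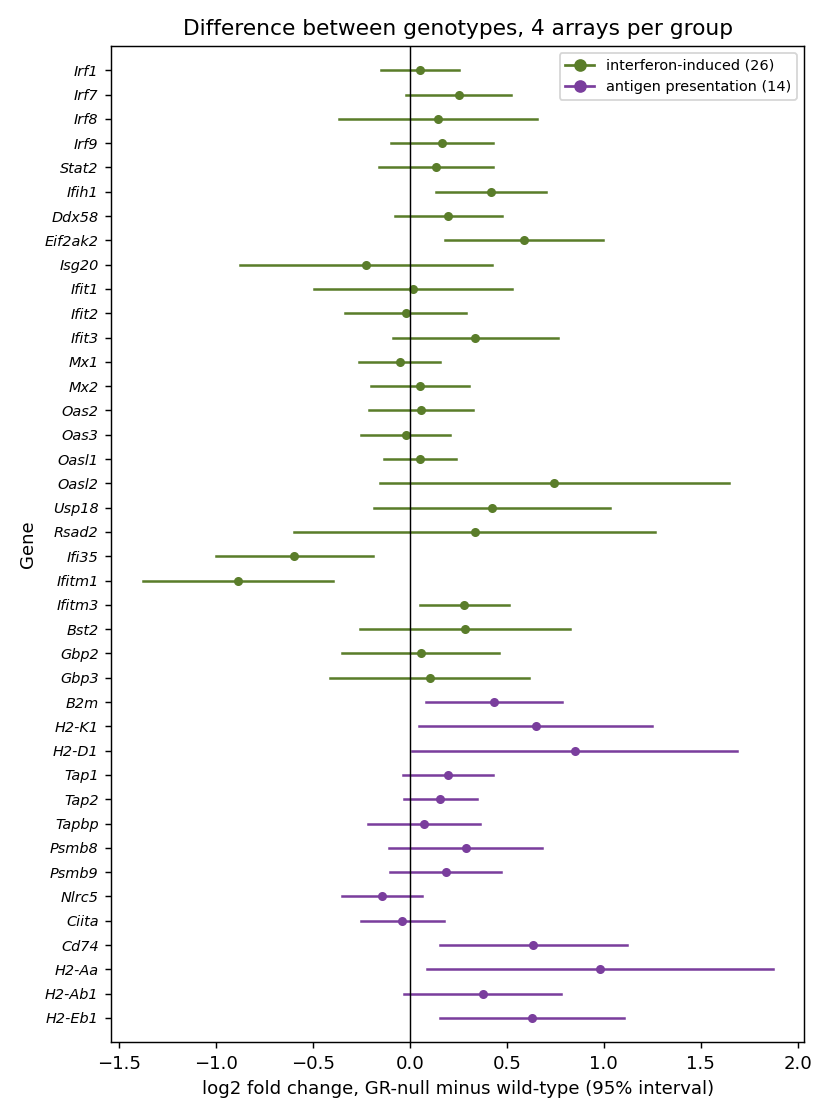
Difference between genotypes (GR-null minus wild-type, log2) for the 40 members, with 95% intervals from limma, 4 arrays per group. Points lie from -0.89 for Ifitm1 to 0.98 for H2-Aa, and most antigen presentation genes (purple) lie right of 0 while none passed the threshold over all genes.

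Among the transcription factors, the differences were small and the groups overlapped in all 5 genes. Irf1, the factor that type II interferon induces first, measured 7.88, 7.97, 7.88 and 8.21 on the wild-type arrays and 8.11, 8.03, 7.99 and 8.01 on the GR-null arrays. Its difference was 0.05 (SE 0.09, adjusted p 0.809), with a 95% interval of -0.15 to 0.25. Irf1 therefore held nearly the same level on all 8 arrays, and wild-type 29 was the highest.

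Irf9, the DNA-binding subunit of the type I complex, measured 7.69, 7.81, 7.74 and 8.01 in wild-type skin and 8.03, 8.23, 7.81 and 7.82 in GR-null skin. Irf7, which amplifies the production of type I interferon, measured 5.90, 5.79, 5.60 and 6.06 against 6.32, 6.07, 5.99 and 5.97. Their differences were 0.16 (SE 0.12, adjusted p 0.475) and 0.25 (SE 0.12, adjusted p 0.263). For both genes the ranges overlapped, although only wild-type 29 reached into the GR-null range of Irf7.

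Stat2, the partner of Irf9, gave different answers by probe set. Its brightest probe set measured 6.43, 6.51, 5.93 and 6.26 in wild-type skin and 6.31, 6.37, 6.40 and 6.59 in GR-null skin, a difference of 0.14 (SE 0.13, adjusted p 0.615). Its second probe set measured 5.48, 5.99, 5.27 and 5.43 against 6.76, 6.06, 6.48 and 6.54. That is a difference of 0.92 (SE 0.18), with an adjusted p of 0.0348 in limma over all 45037 probe sets, of which 3.85% were called. All GR-null arrays lay above all wild-type arrays on the second probe set, by little for GR-null 17 and wild-type 6. Of the 75 probe sets of members it was the only one called, and a reading by any probe set of a gene was chosen after the values were seen. Irf8, a factor of myeloid cells also chosen after its values were seen, measured 7.18 on wild-type 29 and 6.0 to 6.36 on the other wild-type arrays, with 6.42 to 6.84 in GR-null skin.

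The RNA sensors and the RNA-activated kinase had the highest median among the interferon-induced roles. Ifih1, a sensor of long double-stranded RNA, measured 7.52, 7.36, 7.53 and 7.74 on the wild-type arrays and 8.12, 8.16, 7.85 and 7.70 on the GR-null arrays. Its difference was 0.42 (SE 0.13, adjusted p 0.101), with an interval of 0.13 to 0.70. Only GR-null 26 lay within the wild-type range of Ifih1. Ddx58, the sensor RIG-I, measured 7.80, 7.77, 7.51 and 8.04 against 8.12, 8.08, 7.92 and 7.80, a difference of 0.20 (SE 0.12, adjusted p 0.403).

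Eif2ak2 encodes the kinase PKR, which halts translation when it meets double-stranded RNA. It measured 6.82, 6.74, 6.35 and 6.08 in wild-type skin and 7.29, 6.75, 7.15 and 7.14 in GR-null skin, a difference of 0.59 (SE 0.18, adjusted p 0.106). GR-null 17 was the single GR-null array inside the wild-type range. Without GR-null 17 the difference was 0.70 and the adjusted p 0.0461, in a fit that called 9.01% of all genes. The other probe sets of Eif2ak2 gave differences of 0.53 and 0.34, in the same direction. With the mean of the muscle genes as a covariate the difference of Eif2ak2 was 0.20 (adjusted p 0.841), in a limma fit that called 0.176% of all genes. The muscle mean was lower on every GR-null array than on any wild-type array, so that fit separates muscle from genotype poorly.

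The 18 antiviral effectors included the members with the lowest values in GR-null skin. Ifitm1, a membrane protein that blocks the entry of viruses, measured 9.69, 9.93, 9.49 and 10.29 in wild-type skin and 8.94, 9.25, 9.24 and 8.43 in GR-null skin. All 4 GR-null arrays lay below all 4 wild-type arrays. The difference was -0.89 (SE 0.22), a 1.85-fold lower mean, with an interval of -1.38 to -0.39 and an adjusted p of 0.0628. Without GR-null 17 it was -0.98 with an adjusted p of 0.0370, in the limma fit that called 9.01% of all genes. With the mean of the muscle genes as a covariate it was -0.49 (adjusted p 0.652), in the fit that called 0.176%.

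Ifitm3, of the same family, did not share that direction. It measured 11.06, 11.39, 11.09 and 11.26 in wild-type skin and 11.57, 11.60, 11.42 and 11.34 in GR-null skin, a difference of 0.28 (SE 0.10, adjusted p 0.153). Only GR-null 26 lay within the wild-type range.

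Ifi35, an interferon-induced leucine zipper protein, measured 9.95, 9.92, 9.92 and 10.07 on the wild-type arrays and 9.39, 9.92, 9.22 and 8.94 on the GR-null arrays. The wild-type arrays were tightly grouped, and GR-null 17 was level with them while the other GR-null arrays were lower. The difference was -0.60 (SE 0.18, adjusted p 0.102). Without GR-null 17 it was -0.78 with an adjusted p of 0.00799, in the limma fit that called 9.01% of all genes. The other probe sets of Ifi35 gave -0.08 and 0.08, so the lower level rested on a single probe set. The mean of the muscle genes on GR-null 17 was also close to the wild-type arrays. With that mean as a covariate the difference of Ifi35 was -0.13 (adjusted p 0.884), in the limma fit that called 0.176% of all genes. A part of muscle in the level of Ifi35 was not tested.

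Several classical antiviral genes had wide spreads within each genotype. These were chosen after their values were seen. Oasl2, of the oligoadenylate synthetase family, measured 5.36, 5.48, 5.14 and 6.55 in wild-type skin and 6.49, 7.34, 6.08 and 5.59 in GR-null skin. Usp18, the protease that removes Isg15 from proteins and dampens the receptor, measured 5.11, 4.84, 4.68 and 5.96 against 5.62, 5.94, 5.53 and 5.20. In both genes wild-type 29 stood above the other wild-type arrays, within or just above the GR-null range, and GR-null 17 was the highest of its group. The differences were 0.74 (SE 0.40, adjusted p 0.325) for Oasl2 and 0.42 (SE 0.27, adjusted p 0.414) for Usp18.

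Rsad2, the antiviral enzyme viperin, measured 9.07, 8.90, 8.56 and 8.64 in wild-type skin and 9.06, 10.33, 9.18 and 7.94 in GR-null skin. GR-null 17 held the highest value and GR-null 26 the lowest of all 8 arrays, and the second probe set of Rsad2 ordered them alike at 8.65 and 6.37. The third probe set was also highest on GR-null 17, at 7.04, but GR-null 26 was not its lowest array. The difference was 0.33 (SE 0.41, adjusted p 0.711), and it was -0.07 without GR-null 17. Ifit1, an RNA-binding effector with 2 response elements in its window, measured 4.64, 4.74, 4.33 and 5.43 against 4.93, 5.12, 4.64 and 4.52, a difference of 0.02 (SE 0.23). Gbp2, a guanylate-binding protein, measured 5.12, 4.94, 4.79 and 5.43 against 5.04, 5.57, 4.84 and 5.05, a difference of 0.05 (SE 0.18). Ifit1 and Gbp2 were again highest on wild-type 29 and GR-null 17 within their groups. The remaining effectors (Isg20, Ifit2, Ifit3, Mx1, Mx2, Oas2, Oas3, Oasl1, Bst2 and Gbp3) had differences from -0.23 for Isg20 to 0.34 for Ifit3, and the groups of each overlapped.

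**Figure D2:**
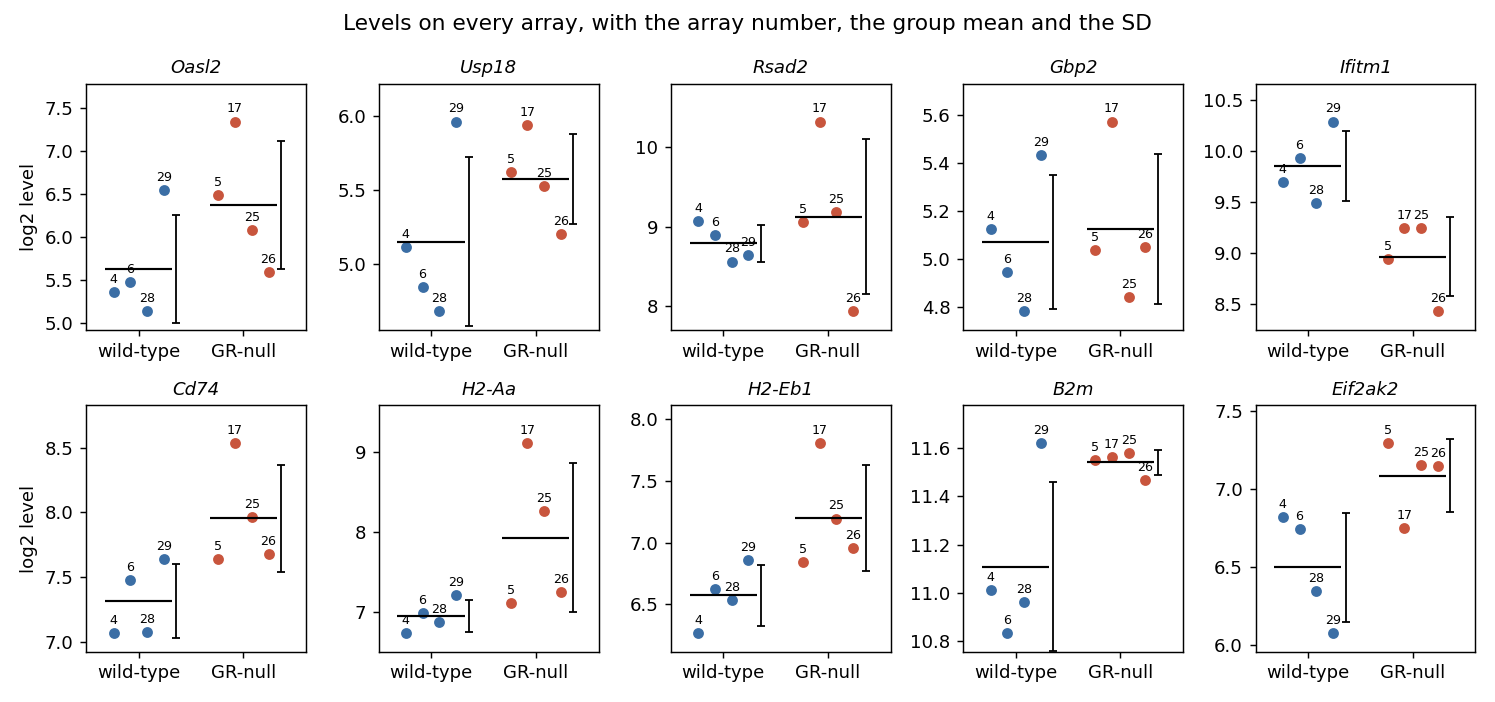
Log2 level of 10 members on each array (points, numbered as the arrays), with the group mean (line) and SD (bar), 4 arrays per genotype. Wild-type 29 and GR-null 17 stand high in Oasl2, Usp18 and Gbp2, while the groups do not overlap in Ifitm1 and Cd74.

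Counted over the class, wild-type 29 was the highest wild-type array in 16 of 26 interferon-induced genes (61.5%), where it was so in 30.6% of all genes. GR-null 17 was the highest GR-null array in 16 of 26 as well, where it was so in 33.4% of all genes. Wild-type 28 was the lowest of its group in 14 genes (53.8%, against 22.6% of all genes) and GR-null 26 the lowest in 13 (50%, against 23.2%). The mean level of the 26 genes ran from 6.74 on wild-type 28 to 7.15 on wild-type 29, and from 6.83 on GR-null 26 to 7.26 on GR-null 17. The spread within a genotype was therefore wider than the difference of 0.11 between the group means. The median within-group SD of the interferon-induced genes was 0.26 and that of all genes 0.15.

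**Figure D3:**
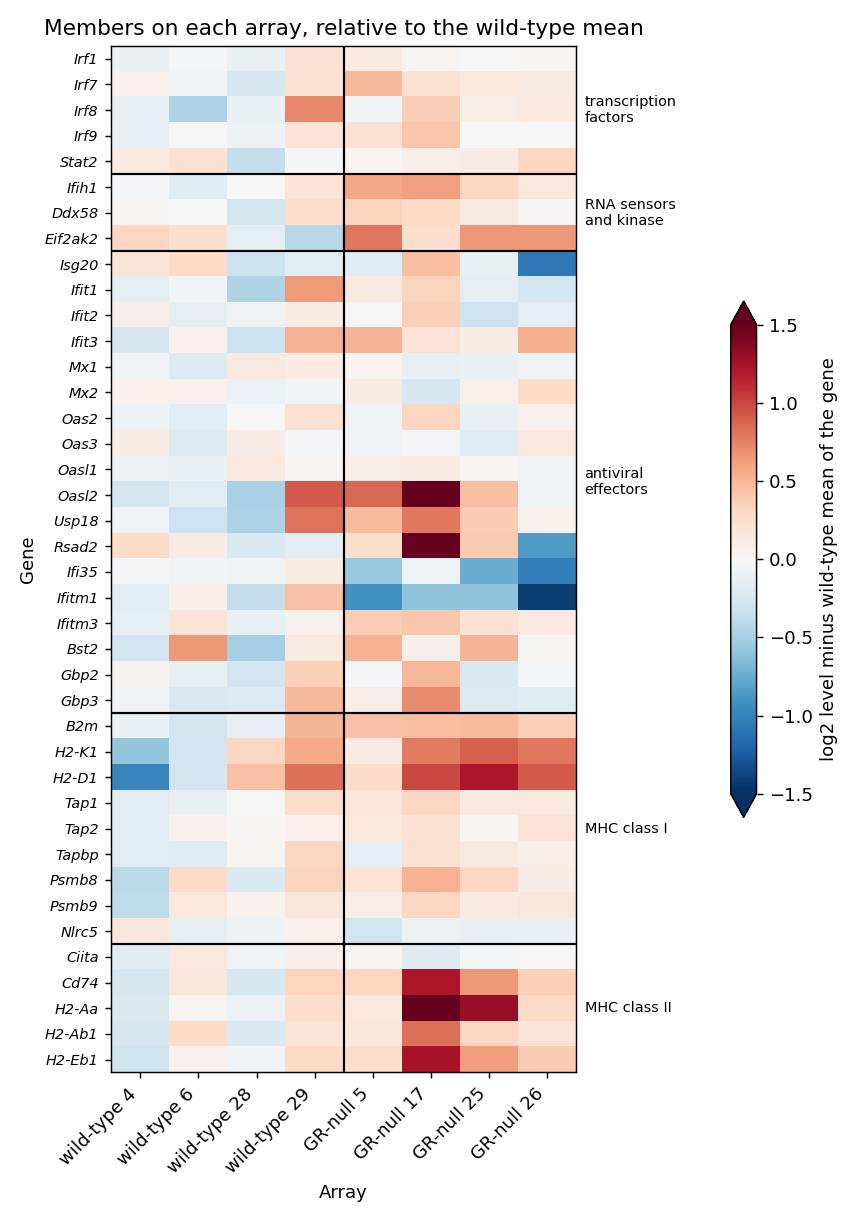
Log2 level of each of the 40 members on each array, minus the wild-type mean of the gene; colours end at 1.5 in either direction. Wild-type 29 and GR-null 17 are the reddest columns of their groups for the interferon-induced genes, and Cd74, H2-Aa, H2-Ab1 and H2-Eb1 are highest on GR-null 17, while Ciita is not.

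Among the MHC class I genes, the light chain and both heavy chains had the larger differences. B2m, the light chain common to class I molecules, measured 11.01, 10.84, 10.96 and 11.62 in wild-type skin and 11.55, 11.56, 11.58 and 11.47 in GR-null skin. The GR-null arrays lay close together, and wild-type 29 alone reached their level. The difference was 0.43 (SE 0.16, adjusted p 0.153). Without wild-type 29 it was 0.60 with an adjusted p of 0.0266, in a fit that called 0.572% of all genes. The second probe set of B2m measured 10.28, 10.68, 10.56 and 10.97 against 11.22, 11.01, 11.52 and 11.29, with no overlap between the groups, a difference of 0.64 (SE 0.16) and an adjusted p of 0.0571 over all probe sets.

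The heavy chain genes H2-K1 and H2-D1 did not give a single answer across their probe sets. At its brightest probe set H2-D1 measured 8.15, 8.85, 9.58 and 9.97 in wild-type skin and 9.41, 10.14, 10.35 and 10.06 in GR-null skin, a difference of 0.85 (SE 0.37, adjusted p 0.224). H2-K1 measured 8.07, 8.37, 8.98 and 9.22 against 8.79, 9.43, 9.56 and 9.45, a difference of 0.65 (SE 0.27, adjusted p 0.201). On these probe sets wild-type 4, wild-type 6 and GR-null 5 were the low arrays of their groups in both genes.

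The third probe set of H2-D1 ordered the same arrays the other way. It measured 9.02, 9.18, 8.14 and 8.57 in wild-type skin and 9.54, 8.45, 8.62 and 8.47 in GR-null skin, so that wild-type 4, wild-type 6 and GR-null 5 were now the high arrays. Its difference was 0.04 (SE 0.29), and the fourth and the fifth probe sets, with the same order of high and low arrays, gave -0.19 and 0.01. The second and sixth probe sets, ordered like the first, gave 0.88 and 0.52. The second probe set of H2-K1, at 8.37, 9.55, 8.62 and 9.36 against 8.81, 9.08, 8.80 and 8.67, gave -0.14. The class I heavy chains are highly polymorphic between strains, and the C57BL/6 and DBA/2 parents of B6D2 mice carry different H2 haplotypes. The H2 alleles of each embryo are not given in the labels. Their part in this split, or in the levels of the class II H2 genes below, was not tested. Without H2-K1 and H2-D1, an exception made after the values were seen, the median of the antigen presentation genes was 0.24.

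**Figure D4:**
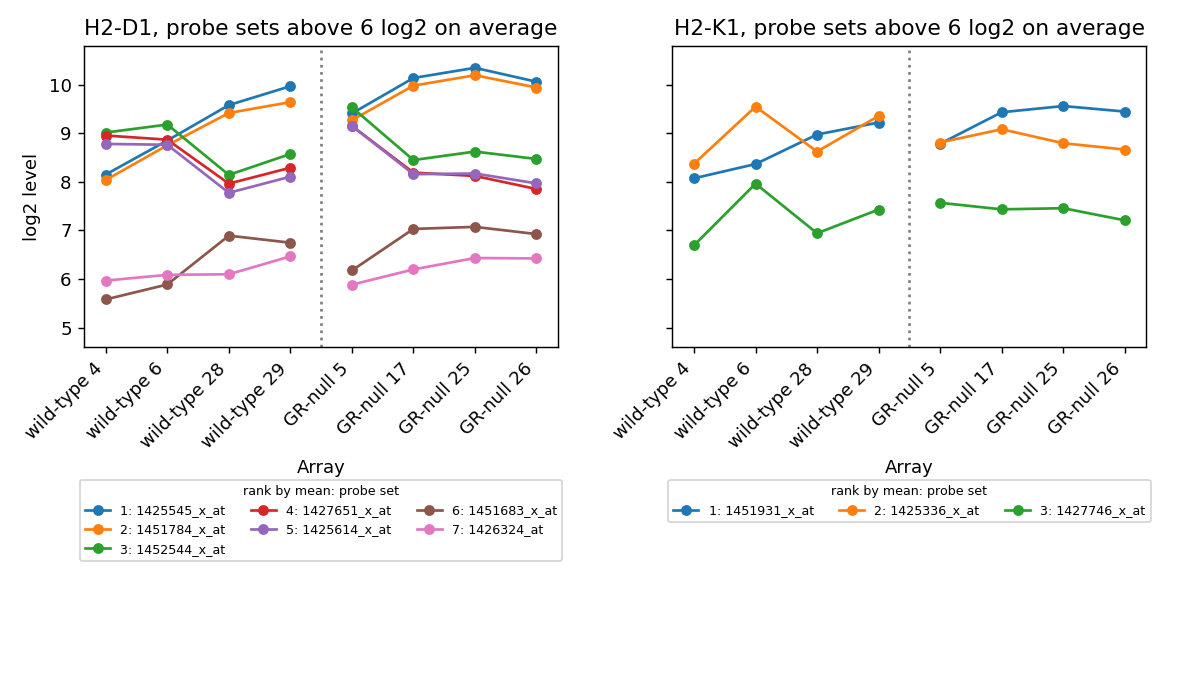
Log2 level on each array of the probe sets of H2-D1 (left) and H2-K1 (right) whose mean is above 6; lines join the values of a probe set and the dotted line parts wild-type from GR-null arrays. For H2-D1, probe sets 1, 2 and 6 are low on wild-type 4, wild-type 6 and GR-null 5, where probe sets 3, 4 and 5 are high.

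The genes that make and load class I peptides differed less. Tap1, a subunit of the peptide transporter, measured 6.62, 6.67, 6.79 and 7.04 in wild-type skin and 6.96, 7.08, 6.93 and 6.93 in GR-null skin, a difference of 0.20 (SE 0.10, adjusted p 0.311). Psmb8, a catalytic subunit of the immunoproteasome, measured 6.19, 6.87, 6.37 and 6.92 against 6.80, 7.11, 6.90 and 6.70, a difference of 0.29 (SE 0.18, adjusted p 0.391). In both genes wild-type 29 lay inside the GR-null range. Tap2, Tapbp (the loading factor tapasin) and Psmb9 had differences of 0.16, 0.07 and 0.18. Nlrc5, the transactivator of class I genes, gave a dim reading of 4.91, 4.59, 4.66 and 4.80 against 4.46, 4.66, 4.63 and 4.63, a difference of -0.15 (SE 0.09, adjusted p 0.406). Tap1, Psmb8 and Nlrc5 were described in full after their values were seen.

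The MHC class II genes had the largest median of the 5 roles, and the GR-null arrays differed widely from each other. Cd74, the invariant chain that escorts class II molecules, measured 7.07, 7.48, 7.08 and 7.64 in wild-type skin and 7.64, 8.53, 7.96 and 7.68 in GR-null skin. The groups did not overlap, although GR-null 5 and wild-type 29 were almost level. The difference was 0.64 (SE 0.21), a 1.55-fold higher mean, with an interval of 0.16 to 1.12 and an adjusted p of 0.132. Without GR-null 17 it was 0.44.

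H2-Aa, the alpha chain of the A molecule, measured 6.74, 6.99, 6.87 and 7.21 in wild-type skin and 7.11, 9.11, 8.26 and 7.25 in GR-null skin. GR-null 17 and GR-null 25 were far above the other arrays, and GR-null 5 and GR-null 26 were close to wild-type 29. The difference was 0.98 (SE 0.39, adjusted p 0.194), and 0.59 without GR-null 17. H2-Eb1, a beta chain of the E molecule, measured 6.27, 6.62, 6.53 and 6.86 against 6.84, 7.80, 7.19 and 6.95, with GR-null 5 just inside the wild-type range. Its difference was 0.63 (SE 0.21, adjusted p 0.133), and 0.43 without GR-null 17.

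H2-Ab1, the beta chain of the A molecule and chosen after its values were seen, measured 6.92, 7.44, 6.95 and 7.37 in wild-type skin and 7.33, 8.0, 7.48 and 7.36 in GR-null skin, a difference of 0.37 (SE 0.18, adjusted p 0.264). Every probe set of H2-Aa, H2-Ab1, H2-Eb1 and Cd74 had a difference above 0. Ciita, the transactivator that class II expression depends on, was also chosen after its values were seen. At its brightest probe set Ciita measured 4.80, 5.14, 4.93 and 5.06 in wild-type skin and 5.02, 4.79, 4.97 and 4.99 in GR-null skin, a difference of -0.04 (SE 0.10, adjusted p 0.870) with a 95% interval of -0.25 to 0.18. Its other probe sets, dimmer still, gave 0.09 (SE 0.07) and 0.14 (SE 0.08). GR-null 17, the highest array for the class II chains, was the lowest at the brightest probe set of Ciita, whose reading was dim on all arrays.

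The class II genes were read again with the mean of the muscle genes as a covariate. Cd74 then had a difference of 1.34 (SE 0.18, adjusted p 0.0466), H2-Aa of 2.37 (SE 0.25, adjusted p 0.0247) and H2-Eb1 of 1.34 (SE 0.16, adjusted p 0.0352), in a fit that called 32 genes (0.176%). Among the GR-null arrays, the class II and the muscle genes were both highest on GR-null 17 and both lowest on GR-null 5, so these differences rest on an adjustment that the GR-null arrays largely set. The reading without GR-null 17 went the other way, to the smaller values given above.

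Markers of immune cells were read beside the members. The mean of 11 macrophage genes was 8.36, 8.60, 8.46 and 8.98 on the wild-type arrays and 8.51, 8.69, 8.47 and 8.06 on the GR-null arrays, with the highest value of each group on wild-type 29 and GR-null 17. The mean of 9 leukocyte genes was 7.49, 7.67, 7.56 and 7.91 against 7.63, 7.86, 7.77 and 7.52, highest on the same arrays. Their part in the levels of the members was not tested. In the macrophage list 1 of 11 genes was called by limma, where 2.96% of all genes were. It was Cd163, which fell by 2.13 (adjusted p 0.0112). The macrophage mean includes Cd163 and differed by -0.17 between genotypes. The median difference of the 11 genes was -0.01, with 5 above 0 and 6 below. In the leukocyte list 1 of 9 was called, Cd53, which rose by 0.47 (adjusted p 0.0303). Among genes of Langerhans and dendritic cells 0 of 9 were called by limma. At an unadjusted p below 0.05 there were 3 (1 higher, 2 lower), where 21.6% of all genes lay below it. Cd207, a marker of adult Langerhans cells, read 5.59 to 5.93 on all 8 arrays. Among genes of T and B lymphocytes 0 of 9 were called, with 1 at an unadjusted p below 0.05, and their mean lay between 5.37 and 5.59 on all arrays. In both of these lists the mean of GR-null 17, the highest array for the class II genes, was the lowest of the GR-null arrays. For the Langerhans and dendritic genes that mean was 5.56, against 5.59 to 5.65 on the other GR-null arrays. The median level was 5.78 and 5.49 in these lists, beside 7.60 over all genes, and differences of dim probe sets are compressed.

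**Figure D5:**
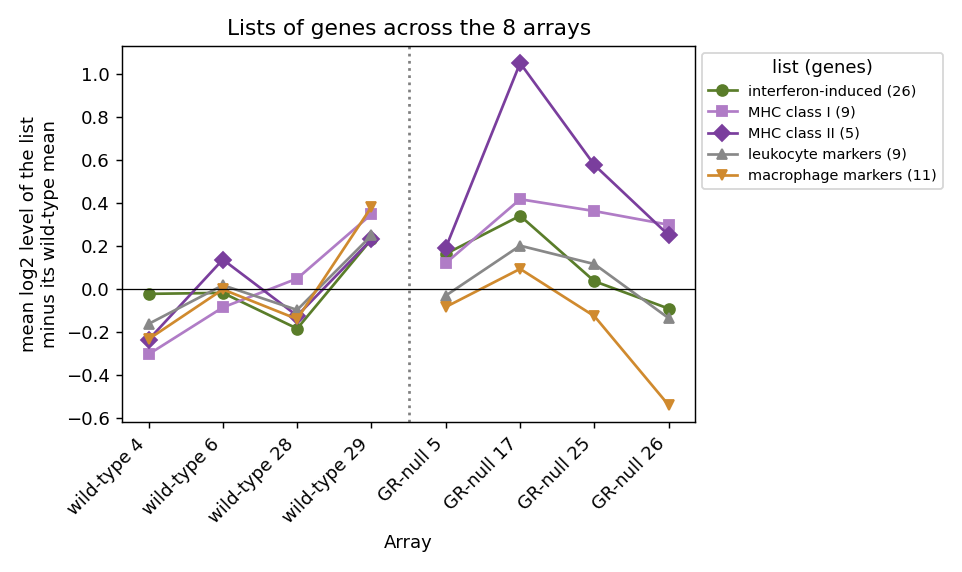
Mean log2 level of each list on each array, minus the wild-type mean of that list; lines join the values of a list and the dotted line parts the genotypes. All 5 lists are highest on wild-type 29 among the wild-type arrays and on GR-null 17 among the GR-null arrays, with a wide margin for MHC class II, whose mean was 6.79 to 7.17 on the other GR-null arrays.

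Beyond the members, 140 other genes of the pathway were listed and 112 were measured. Of these, 5 rose in GR-null skin, none fell and 107 did not pass the threshold, where 2.96% of all genes were called (1.4% higher). At an unadjusted p below 0.05 there were 18 higher and 7 lower, which is 22.3% of them, where 21.6% of all genes lay below it (10.5% higher and 11.1% lower). The median difference was 0.07.

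The interferons themselves were read at dim probe sets and 0 of 9 were called, with 0 at an unadjusted p below 0.05. Ifnb1 gave a difference of -0.16 (SE 0.09, adjusted p 0.355) and Ifna9 one of 0.16 (SE 0.12, adjusted p 0.524). Of the 9 receptors and kinases, Jak1 rose. This kinase, which serves the receptors of all interferon types and many cytokines, measured 10.39, 10.50, 10.55 and 10.47 in wild-type skin and 10.78, 10.76, 11.03 and 11.12 in GR-null skin. The groups did not overlap, and the difference was 0.44 (SE 0.10, adjusted p 0.0489). The other probe sets of Jak1 gave 0.35 and 1.50, and the call at the brightest one was lost in 7 of 8 fits that left out an array. Without GR-null 17 the fit called 9.01% of all genes, and the other fits called 0.434% to 1.76%, against 2.96% with all arrays.

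Of the 23 signalling genes and regulators none was called by limma, with 1 higher and 4 lower at an unadjusted p below 0.05. Cgas, the sensor of cytosolic DNA, had a difference of -0.35 (SE 0.09, adjusted p 0.0751), with all GR-null arrays below all wild-type arrays. Without GR-null 17 its adjusted p was 0.0436, in the limma fit that called 9.01% of all genes. Pias1, a SUMO ligase that restrains cytokine signalling, had a difference of 0.36 (SE 0.13, adjusted p 0.156). In the same fit without GR-null 17 the adjusted p of Pias1 was 0.0463.

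Of the 43 other interferon-stimulated genes, 2 rose. Psma4, listed here although it is a constitutive subunit of the proteasome, measured 11.38, 11.34, 11.51 and 11.17 in wild-type skin and 11.96, 11.94, 11.84 and 11.85 in GR-null skin, a difference of 0.55 (SE 0.09, adjusted p 0.0180). Lgals9, a galectin of immune regulation, measured 9.45, 9.66, 9.29 and 9.82 against 10.27, 10.06, 10.31 and 10.24, a difference of 0.67 (SE 0.12, adjusted p 0.0292). Neither gene's groups overlapped, and wild-type 29 was the lowest array of all for Psma4 and the highest wild-type array for Lgals9.

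Of the 28 other antigen presentation genes, 2 rose. Psme1, a subunit of the proteasome activator that interferon induces, measured 9.87, 10.04, 9.93 and 10.14 in wild-type skin and 10.37, 10.33, 10.44 and 10.45 in GR-null skin, a difference of 0.40 (SE 0.08, adjusted p 0.0378). Mr1, a class I-like molecule that presents microbial metabolites, measured 6.79, 7.04, 6.76 and 6.67 against 7.41, 7.15, 7.82 and 7.70, a difference of 0.70 (SE 0.15, adjusted p 0.0434), with 0.98 at its second probe set. The groups of both genes lay apart, narrowly so for Mr1 on GR-null 17. The calls of Psma4, Lgals9, Psme1 and Mr1 were lost in 3, 5, 7 and 7 of the 8 fits that left out an array. Apart from the fit without GR-null 17, these fits called 0.434% to 1.76% of all genes, against 2.96% with all arrays. With the mean of the muscle genes as a covariate all 5 pathway calls were lost, with differences of 0.36 to 0.59. That fit called 0.176% of all genes.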

How the data were processed

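RNA from 8 dorsal skin samples was hybridised to Affymetrix Mouse Genome 430 2.0 arrays, 4 per genotype. The values the authors deposited are on a log2 scale, 1 per probe set. Per the submitters' processing notes they come from RMA, which corrects background, equalises the arrays and summarises probes; further details are not given in the sources read. RMA compresses differences of dim and very bright probe sets, so small differences of dim members may be understated. Precision is limited by the number of arrays.

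Of 45101 probe sets, 64 controls were left out. By the platform annotation 34945 of the 45037 tested carried 1 gene symbol, 932 several and 9160 none listed. Of 18194 genes, 18032 had an entry in the RefSeq gene table (GRCm38.p6) and the other 162 were named by that annotation. All columns of values were mapped to samples.

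Genotype was the single term of a linear model fitted to all probe sets with limma 3.58.1 in R 4.3.3 (lmFit, eBayes, two-sided), read at the brightest probe set annotated to a gene alone. P-values were adjusted by Benjamini-Hochberg over the genes, with a threshold of 0.05. The script was tested on simulated data. Other settings were quantile normalization applied again, leaving out dim probe sets, another variance prior, array weights, the mean of a gene's probe sets, no cross-hybridising probe sets, a muscle or Y-linked covariate, and leaving out each array.

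Members and lists were chosen with earlier results of these data known. Genes described in full were, per role, the 2 members of highest mean and the 3 of smallest p. In the other pathway genes they were up to 4 per role past the threshold, or else the 2 of smallest p. Others are said to be chosen after their values were seen. Promoter windows came from RefSeq, and 9 measured members had none in the table used here.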

Additional observations from a re-analysis of the deposited data

Results flagged for a closer look

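In the 80 groups of 4 arrays formed by the 40 members and both genotypes, an array was checked for standing apart from the other 3 of its group, which chance alone gives in about 5% of groups. It was found in 2 groups, both for GR-null 5. H2-K1 measured 8.79 on GR-null 5, where the other GR-null arrays read 9.43 to 9.56. Nlrc5 measured 4.46 on GR-null 5, where the other GR-null arrays read 4.63 to 4.66.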

How the results depend on the processing

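Counts of members past the threshold were 0 in both classes as reported. For the interferon-induced genes the count was 3 with array quality weights (Eif2ak2, Ifi35 and Ifitm1), 1 with a gene's probe sets averaged (Ifitm1), 1 with any probe set adjusted over all probe sets (Stat2), and 0 to 3 when leaving out each array in turn, with 3 without GR-null 17. For the antigen presentation genes it was 3 with the mean of the muscle genes as a covariate and 0 to 1 when leaving out each array, with 1 without wild-type 29. The cause was not tested. The share of all genes called moved too: it was 2.96% as reported, 10.7% with array weights, 4.86% with the mean of probe sets, 0.176% with the muscle covariate, and 0.434% to 9.01% when leaving out an array. Counts of all genes under these settings were 539, 1944, 884 and 32. The median differences kept their sign under every setting tried, at 0.06 to 0.27 for the interferon-induced and 0.19 to 0.57 for the antigen presentation genes. Some settings measured fewer genes, down to 14 interferon-induced and 10 antigen presentation genes when dim probe sets were left out.

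Of 564 values for 36 results under other settings, 495 kept their direction and side of the threshold, 38 lost and 16 gained a call, and 15 changed sign. All 38 lost calls belong to Jak1, Psma4, Lgals9, Psme1 and Mr1, the only named genes here that were called as reported. The other results had no call to lose. Signs changed for Ifi35 without cross-hybridising probe sets (0.0768), Ifna9 with the muscle covariate (-0.0782), Ifit1 (-0.0356) and Gbp2 (-0.0546) with array weights, and Ciita with the mean of probe sets (0.0645). When each array was left out, differences ran from -0.134 to 0.230 for Ifit1, -0.0942 to 0.175 for Gbp2, -0.0117 to 0.384 for Irf8, -0.0655 to 0.731 for Rsad2 and -0.0996 to 0.0133 for Ciita. The median without H2-K1 and H2-D1 and the reading by any probe set were chosen after seeing the data. No paired analysis was possible because the labels give no litter for any array and the groups share no replicate numbers. A part of litter in the differences was not tested. With 4 arrays per group, intervals of single members were often wider than the differences, and dim members such as Nlrc5, Ciita, Mx1 and Oas3 were read close to the lowest levels on the array, where differences are compressed.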

Other observations

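H2-Ea, the alpha chain gene of the class II E molecule and a pathway gene named after its values were seen, read unlike H2-Eb1 at its brightest probe set, with a difference of 0.12 (SE 0.11). At its second probe set it measured 5.91, 6.39, 5.96 and 6.19 on the wild-type arrays and 7.10, 7.34, 6.78 and 6.10 on the GR-null arrays. There GR-null 5, 17 and 25 lay above all wild-type arrays and GR-null 26 lay among them, with a difference of 0.72 (SE 0.24) and an adjusted p of 0.128 in limma over all probe sets.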
